A study of Homo sapiens with 6 samples.

Results

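The genes described here are 55 human genes of DNA damage repair, chosen by name and sorted into pathways: 22 of the Fanconi anaemia and homologous recombination pathways, 7 of end joining, 3 of mismatch repair, 15 of excision repair and 8 of checkpoint signalling. They are 55 of the 58174 genes in the files, and all 55 were among the 16321 genes tested, those that reached 0.5 FPKM in 3 samples or more. Their levels were measured by mRNA sequencing of SiHa cells, an established line of cervical squamous cell carcinoma that carries human papillomavirus DNA. The OV-BRCA1 group (3 samples) received the GV230-BRCA1 plasmid and the NC group (3 samples) the GV230 plasmid without the insert, in both cases with a lipid reagent and 48 h before RNA was taken. Transfection was transient, so each sample is the average of the cells that took the plasmid up and those that did not, and fewer cells expressing a gene and less RNA per cell cannot be told apart. The study describes the 3 samples of each group as biological replicates.

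DNA is damaged in several chemically distinct ways, and the repair pathways divide this damage between them, with overlaps. The Fanconi proteins and the homologous recombination proteins act on crosslinks and on double-strand breaks with the sister chromatid as template, while end joining seals breaks directly. Mismatch repair corrects replication errors, base excision repair removes small damaged bases, nucleotide excision repair removes bulky adducts such as those left by ultraviolet light or cisplatin, and the checkpoint kinases with their chromatin partners stop the cell cycle while repair goes on. BRCA1 itself works in homologous recombination and in checkpoint signalling, and the comparison asks how the genes of these pathways stood when it was overexpressed.

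BRCA1, the gene on the plasmid, was at 35.7, 40.8 and 34.9 FPKM in the OV-BRCA1 samples and at 20.1, 14.9 and 21.7 FPKM in the NC samples. FPKM is a count of sequenced fragments scaled by transcript length and by library depth, here summed over the transcripts of a gene. The BRCA1 groups did not overlap and went the way the labels say (log2 fold change 0.95, SE 0.14, limma with Benjamini-Hochberg adjustment over all genes tested, adjusted p = 0.00373). Plasmid and chromosomal copies of BRCA1 cannot be told apart in this sum. Unless another transcript choice, a length-weighted sum or an omitted sample is named, each fold change below is on the log2(FPKM + 1) scale, OV-BRCA1 over NC, and each adjusted p comes from the same limma fit. A gene is called higher or lower where its adjusted p is below 0.05.

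The promoters of the 4 repair genes that fell with the smallest adjusted p-values (DDB2, LIG1, FANCA and XPC) and of the gene that rose with the smallest (EXO1) are shown first, chosen by adjusted p alone. Each is the RefSeq window from 250 bases before to 50 bases after the gene's start, in GRCh38.p14, read along the gene's strand, with motif matches in capitals. The motifs searched, on both strands, were the E2F letters TTTCCCGC, TTTCGCGC, TTTGCCGC and TTTGGCGC, the CCAAT box CCAAT, and the cell cycle homology region letters TTTGAA. None of the 3 motifs contains another, and on the printed strand a match to the opposite strand appears as its reverse complement.

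DDB2 (chr11:47214204-47214503, plus strand): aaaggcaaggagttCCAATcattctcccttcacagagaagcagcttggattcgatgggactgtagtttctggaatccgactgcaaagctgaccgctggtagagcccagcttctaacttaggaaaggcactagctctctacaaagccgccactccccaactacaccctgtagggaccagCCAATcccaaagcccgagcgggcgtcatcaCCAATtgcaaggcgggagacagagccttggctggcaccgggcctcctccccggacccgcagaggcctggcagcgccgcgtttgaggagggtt

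LIG1 (chr19:48170295-48170594, minus strand): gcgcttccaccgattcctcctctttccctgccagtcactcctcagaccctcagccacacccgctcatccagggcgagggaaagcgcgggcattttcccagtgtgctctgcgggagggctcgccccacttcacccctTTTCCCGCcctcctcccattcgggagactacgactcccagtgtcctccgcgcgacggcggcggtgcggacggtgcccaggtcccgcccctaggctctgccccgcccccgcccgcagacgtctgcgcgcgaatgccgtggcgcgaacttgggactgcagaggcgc

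FANCA (chr16:89816598-89816897, minus strand): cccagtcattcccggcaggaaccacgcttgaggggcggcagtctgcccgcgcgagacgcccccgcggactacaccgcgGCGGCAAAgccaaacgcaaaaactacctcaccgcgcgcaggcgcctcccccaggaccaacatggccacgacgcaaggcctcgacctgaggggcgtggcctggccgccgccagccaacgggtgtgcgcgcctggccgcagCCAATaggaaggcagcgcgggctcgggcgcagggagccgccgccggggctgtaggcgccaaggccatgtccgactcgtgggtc

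XPC (chr3:14178552-14178851, minus strand): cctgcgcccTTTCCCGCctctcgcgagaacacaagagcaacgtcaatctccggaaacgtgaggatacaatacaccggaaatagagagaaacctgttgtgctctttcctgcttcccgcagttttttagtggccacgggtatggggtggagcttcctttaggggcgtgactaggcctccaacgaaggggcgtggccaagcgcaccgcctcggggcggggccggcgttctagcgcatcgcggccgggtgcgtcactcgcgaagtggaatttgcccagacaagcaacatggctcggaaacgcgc

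EXO1 (chr1:241847954-241848253, plus strand): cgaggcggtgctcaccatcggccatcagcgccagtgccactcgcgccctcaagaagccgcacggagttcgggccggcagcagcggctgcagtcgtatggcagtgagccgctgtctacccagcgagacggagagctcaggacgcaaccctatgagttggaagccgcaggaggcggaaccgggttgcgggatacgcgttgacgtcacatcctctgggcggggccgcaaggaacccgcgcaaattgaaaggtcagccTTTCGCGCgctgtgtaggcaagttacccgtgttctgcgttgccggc

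DDB2 held 3 CCAAT letters, beginning 236, 72 and 42 bases before the start, and none of the E2F letters. LIG1 had 1 E2F match beginning 114 bases before the start, XPC 1 beginning 241 bases before it, FANCA 1 beginning 172 bases before it together with a CCAAT 33 bases before it, and EXO1 1 beginning 5 bases after the start. A window was found for 50 of the 55 genes. The E2F letters stood in 11 of these 50 windows (22.0%), against 3.35% of the windows of 27305 genes and 5.65% of those of 9704 protein-coding genes tested. CCAAT stood in 23 of the 50 (46.0%, against 35.7% and 37.0%) and TTTGAA in 5 (10.0%, against 15.4% and 9.15%). Among windows of called genes, the E2F letters were in 3 of 9 that fell and in 1 of 3 that rose. These are counts of letters in a window, not of bound sites.

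Of the 55 repair genes, 4 rose (EXO1, RAD51C, NBN and LIG4) and 10 fell (DDB2, LIG1, XPC, ERCC3, FANCA, FANCL, FANCG, FANCI, POLQ and CHEK2). With any 1 sample left out, 1 to 3 of the 55 rose and 6 to 8 fell, and 27.1% to 29.2% of all genes were called. With all samples, 16.4% of all genes tested were called higher and 18.9% lower, 35.3% in all, beside 14 of 55 (25.5%) of the repair genes. This difference was not tested, and with the length-weighted sums described below the shares were 42.6% and 41.8%. Their median log2 fold change was -0.02, beside -0.04 over all genes tested, and the median size of the change without its sign was 0.24, beside 0.26. The fold changes of single repair genes ran from -0.84 (DDB2) to 0.62 (UNG, not called), and the largest among the called rises was 0.44 (NBN). In this limma fit on FPKM none of the 55 had an adjusted p below 0.05 together with an absolute log2 fold change above 1, which 3.99% of all genes tested had. The study applied these limits to a test of read counts, which were not used here, so its own calls can differ. At an unadjusted p below 0.05 there were 23 of the 55 repair genes and 7507 of all 16321 genes tested. In 26 repair genes the groups were fully apart, with OV-BRCA1 higher in 12 and lower in 14, and this was so for 50.8% of all genes tested.

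**Figure D1:**
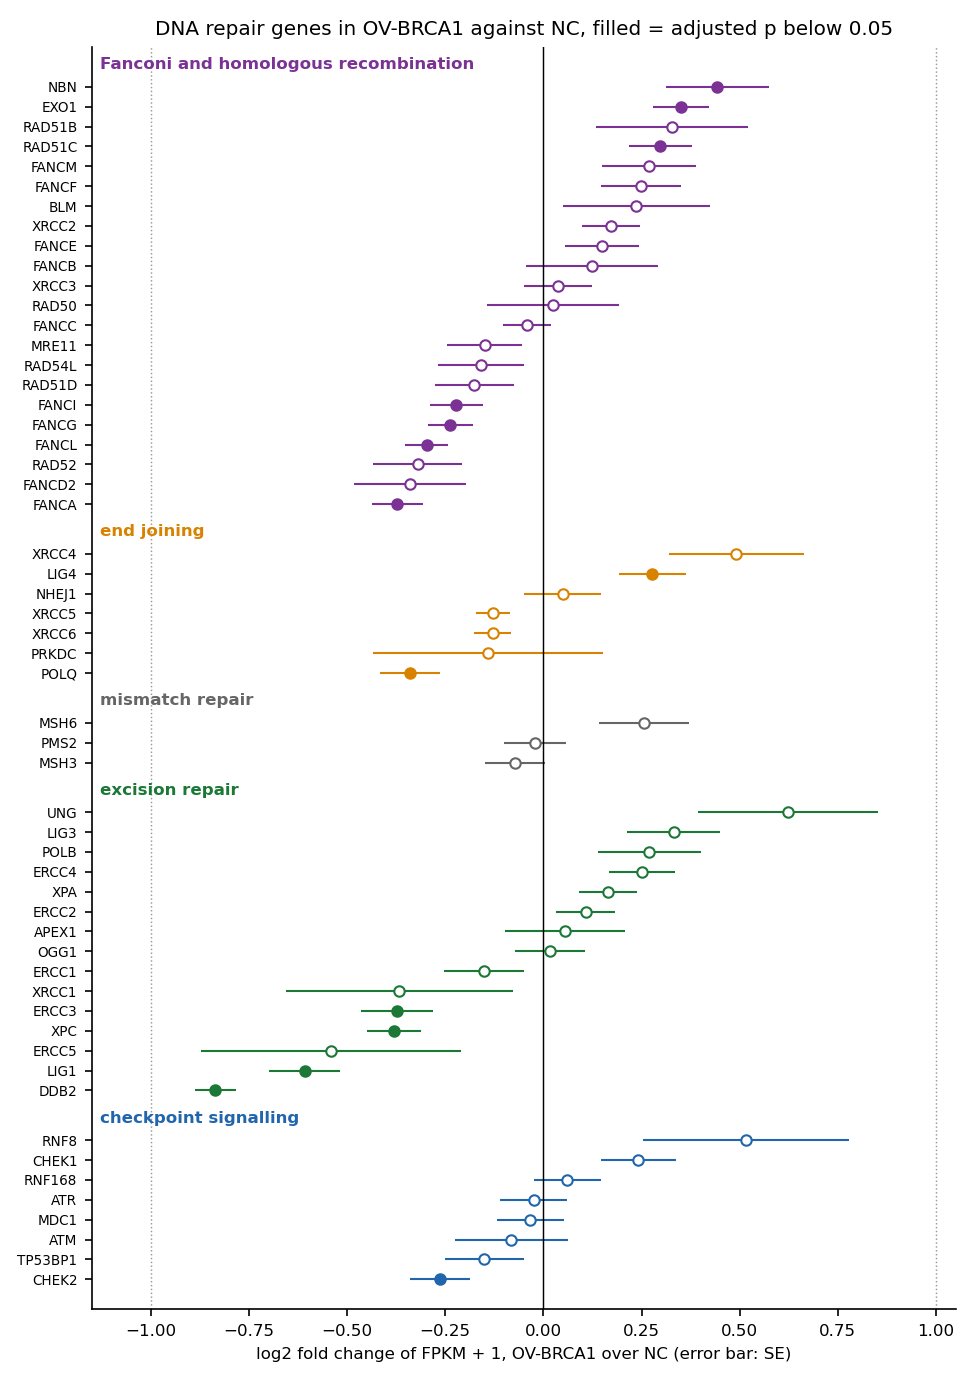
Log2 fold change of FPKM + 1 (x axis, OV-BRCA1 over NC) of the 55 repair genes, sorted within pathway, with the standard error as bar, n = 3 per group. Filled points have a limma adjusted p below 0.05, and dotted lines mark a log2 fold change of 1 in either direction, which no gene reached. DDB2 is lowest at -0.84 and UNG, open, is highest at 0.62.

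**Figure D2:**
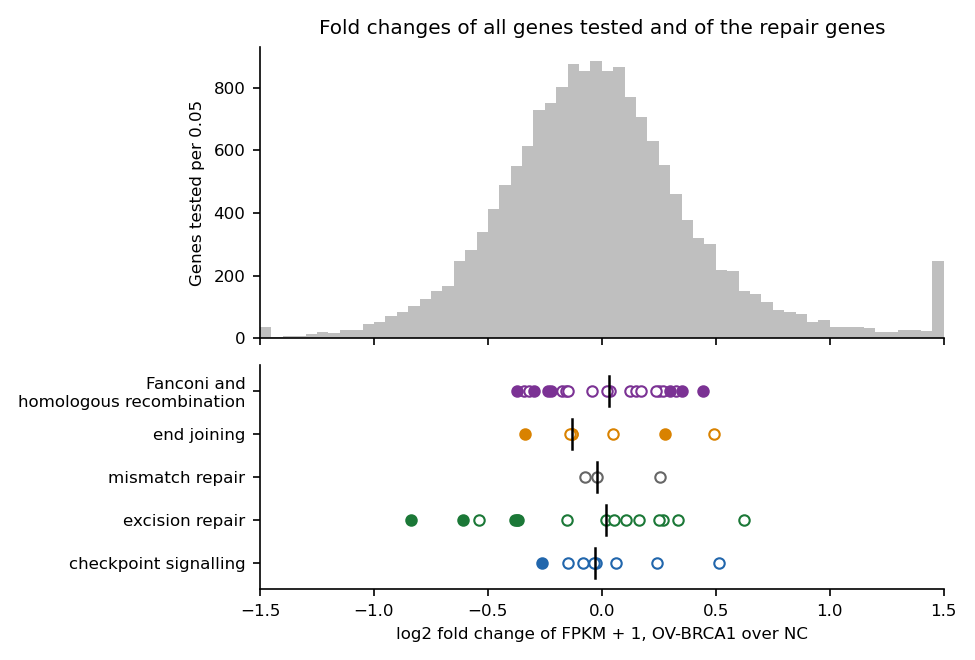
Histogram of the log2 fold changes of the 16321 genes tested (upper panel, genes per bin of 0.05, the end bins also holding all genes beyond them) above the repair genes of each pathway (lower panel, filled points called, black bars the median). The repair genes lie between -0.84 and 0.62 and their group medians between -0.13 and 0.03.

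Of 10 Fanconi genes 4 fell and none rose (median log2 fold change -0.13), and of 12 recombination genes 3 rose and none fell (median 0.10). The difference between these sets was not tested, and with transcripts weighted by length, as described below, 3 Fanconi genes fell and 4 recombination genes rose while 2, MRE11 and RAD52, fell. FANCA, part of the Fanconi core complex that ubiquitinates the FANCI and FANCD2 pair, was the most abundant gene of the group. It stood at 66.9, 71.6 and 61.5 FPKM in OV-BRCA1 and at 88.5, 85.3 and 85.4 FPKM in NC. The groups did not overlap, and the fold change was -0.37 (SE 0.06, limma adjusted p = 0.00624). FANCL, the ubiquitin ligase of the core complex, was at 31.6, 32.0 and 33.7 FPKM against 41.2, 38.2 and 41.0 FPKM, again with every OV-BRCA1 sample below every NC sample. Its fold change was -0.30 (SE 0.06, limma adjusted p = 0.00826), and it was -0.04 (limma adjusted p = 0.905) when the most abundant transcript stood for the gene.

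FANCG, another core complex subunit, was at 13.7, 14.3 and 13.9 FPKM against 16.3, 17.3 and 16.4 FPKM (-0.24, SE 0.06, limma adjusted p = 0.0205). FANCI, which the core complex modifies, was at 48.5, 45.5 and 46.2 FPKM against 50.03, 56.4 and 57.8 FPKM (-0.22, SE 0.07, limma adjusted p = 0.0468). In FANCI the OV-BRCA1 samples lay close together and the distance to the nearest NC sample was small. Both calls depended on single samples and on the transcripts used. The sign of FANCG turned with the most abundant transcript (0.30), with coding transcripts alone (0.26) and with length-weighted sums (0.08), and FANCI was at -0.06 with coding transcripts alone. The limma adjusted p of FANCG was 0.0571 with OV-BRCA1 replicate 1 left out, 0.0545 with OV-BRCA1 replicate 3 left out and 0.0651 with NC replicate 2 left out. FANCI passed the threshold only without NC replicate 1, and its limma adjusted p was 0.0681 to 0.128 when any other sample was left out. FANCD2, the partner of FANCI, was at 8.36 to 10.4 FPKM against 10.2 to 14.3 FPKM, overlapped and was not called.

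The other 5 Fanconi genes were not called, and 4 of them had a positive fold change: FANCB, FANCE, FANCF and FANCM. FANCF was the least abundant of all 55 genes, at 1.18, 1.22 and 1.40 FPKM against 0.869, 0.767 and 1.10 FPKM. Its groups were apart, but its fold change of 0.25 (SE 0.10) had a limma adjusted p of 0.103. FANCC was at 7.31 to 7.66 FPKM against 7.67 to 7.78 FPKM, apart by very little.

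Among recombination genes EXO1, the exonuclease that resects the ends of breaks over long distances, rose. It stood at 18.9, 19.3 and 19.2 FPKM in OV-BRCA1 and at 15.6, 15.3 and 13.5 FPKM in NC, with a fold change of 0.35 (SE 0.07, limma adjusted p = 0.0112). RAD51C, a paralogue of the recombinase that helps to load and stabilise its filament, was at 25.2, 21.5 and 23.1 FPKM against 18.6, 17.6 and 19.97 FPKM (0.30, SE 0.08, limma adjusted p = 0.0300). NBN, the subunit that ties the break-sensing complex to its kinase, was at 9.196, 7.16 and 9.04 FPKM against 6.83, 5.95 and 5.11 FPKM (0.44, SE 0.13, limma adjusted p = 0.0413). In each of the 3 genes the groups were apart with OV-BRCA1 on top, though in NBN the nearest samples differed by little.

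With the most abundant transcript none of the 3 was called, and NBN was then at 1.10 (limma adjusted p = 0.508). With coding transcripts alone EXO1 was still called, while RAD51C and NBN were not. The calls of RAD51C and NBN were also lost without a filter on low values, and that of NBN with the replicate number as a block in the fit. Neither call held at every omission of a sample. Without OV-BRCA1 replicate 1, OV-BRCA1 replicate 3, NC replicate 1 or NC replicate 2, RAD51C had a limma adjusted p of 0.0755, 0.0713, 0.0787 and 0.0869. Without OV-BRCA1 replicate 1, OV-BRCA1 replicate 3, NC replicate 2 or NC replicate 3, NBN had a limma adjusted p of 0.113, 0.113, 0.0944 and 0.109. The other subunits of the NBN complex were not called: MRE11, its nuclease, was at 9.08 to 9.51 FPKM against 9.40 to 12.0 FPKM, and RAD50, its tethering subunit, at 8.04 to 13.0 FPKM against 9.63 to 11.6 FPKM. Of the other recombinase paralogues, RAD51B, RAD51D, XRCC2 and XRCC3 had fold changes of 0.33, -0.18, 0.17 and 0.04, all with overlapping groups. RAD52, an annealing protein, was at 4.91 to 6.05 FPKM against 6.19 to 8.03 FPKM and missed the threshold at a limma adjusted p of 0.0722. RAD54L, a motor protein of strand exchange, and BLM, a helicase that takes joined molecules apart, overlapped with fold changes of -0.16 and 0.24.

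**Figure D3:**
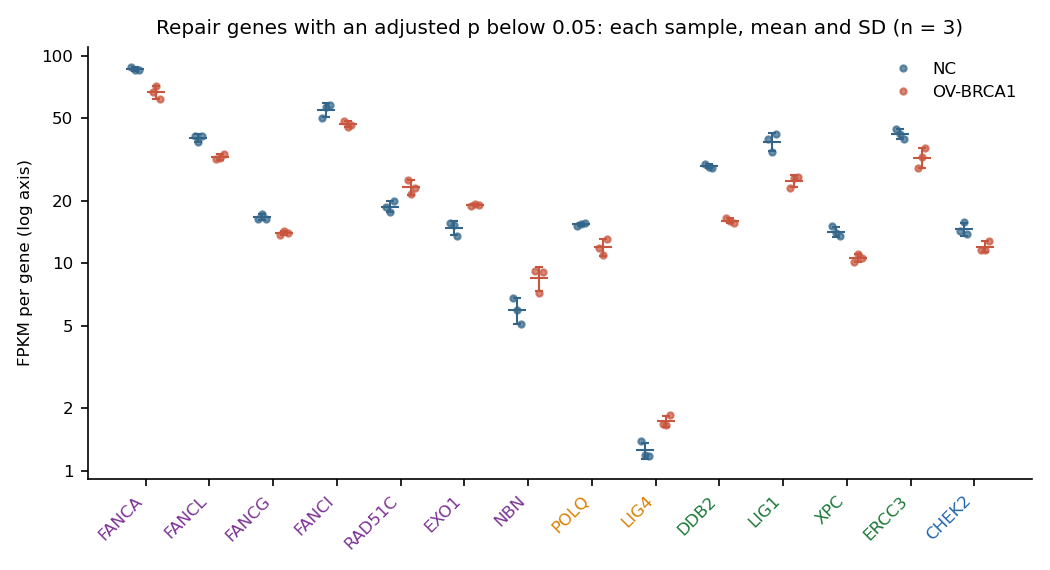
FPKM per gene (y axis, log scale) in each of the 3 OV-BRCA1 and 3 NC samples for the 14 called repair genes, with the mean as a dash and the SD as a bar. Gene names are coloured by pathway as in the plot of fold changes by pathway. In all 14 genes the points of the groups do not overlap, and DDB2 shows the widest gap.

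End joining had 1 gene higher and 1 lower of 7, with a median of -0.13. POLQ, the polymerase of the alternative, microhomology-based branch, was at 11.8, 10.96 and 13.1 FPKM in OV-BRCA1 and at 15.1, 15.4 and 15.6 FPKM in NC. The NC samples were almost level and every OV-BRCA1 sample was below them (-0.34, SE 0.08, limma adjusted p = 0.0168). Without NC replicate 3 the limma adjusted p of POLQ was 0.0531, and with the most abundant transcript its fold change was -1.56 (limma adjusted p = 0.276). LIG4, the ligase of the classical branch, rose from a low level, at 1.67, 1.66 and 1.85 FPKM against 1.38, 1.19 and 1.18 FPKM (0.28, SE 0.09, limma adjusted p = 0.0470). This call was lost when any of the 6 samples was left out, with limma adjusted p-values of 0.0632 without NC replicate 1 to 0.126 without NC replicate 3.

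XRCC6 and XRCC5, the Ku subunits that bind broken ends, were the most abundant end joining genes. XRCC6 was at 192, 177 and 183 FPKM against 202, 196 and 205 FPKM, and XRCC5 at 67.9, 67.0 and 67.9 FPKM against 73.2, 72.6 and 76.3 FPKM. Both had a fold change of -0.13 and groups that did not overlap, and both missed the threshold (limma adjusted p = 0.0754 and 0.0593). XRCC4, the scaffold that LIG4 binds, was at 4.43, 3.89 and 4.53 FPKM against 3.66, 2.83 and 1.96 FPKM (0.49, SE 0.17, limma adjusted p = 0.0678). Its groups were apart. NHEJ1, the partner of XRCC4, overlapped at 5.41 to 6.11 FPKM against 5.05 to 6.30 FPKM. PRKDC, the kinase that Ku recruits, was singled out after its values were seen, since its samples spread most widely within end joining: 30.9, 56.4 and 46.4 FPKM against 38.7, 69.7 and 40.7 FPKM. Its fold change of -0.14 had an SE of 0.29 and turned positive without OV-BRCA1 replicate 1 (0.09) or NC replicate 2 (0.12).

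Of the 3 mismatch repair genes 0 were called by limma, and 0 had an unadjusted p below 0.05. MSH6, which pairs in the complex that recognises single mismatches, was at 15.7, 18.8 and 19.4 FPKM against 13.6, 14.2 and 17.0 FPKM (0.26, SE 0.11, limma adjusted p = 0.132). MSH3, its counterpart for larger loops, was at 5.83, 5.25 and 5.34 FPKM against 6.00, 5.45 and 5.97 FPKM. PMS2, of the nuclease complex that follows, was at 6.73, 6.79 and 7.37 FPKM against 6.51, 7.33 and 7.43 FPKM. The groups overlapped in all 3. PMS2 has near-identical pseudogene copies and so its share of the reads is uncertain.

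Excision repair held the largest changes among the repair genes. Of its 15 genes 4 fell (26.7%, beside 18.9% of all genes tested) and none rose, with a median of 0.02 over the 15. With transcripts weighted by length, as described below, 6 fell and 1, ERCC4, rose. DDB2, the damage sensor that finds ultraviolet lesions in chromatin and is a known target of the p53 protein, was at 16.5, 15.9 and 15.7 FPKM in OV-BRCA1 and at 30.1, 29.2 and 28.8 FPKM in NC. The samples of each group lay close together, and the mean of OV-BRCA1 was 54.5% of that of NC. The fold change was -0.84 (SE 0.05, limma adjusted p = 0.000123). XPC, which recognises distorted DNA across the genome, was at 10.2, 11.1 and 10.6 FPKM against 15.1, 13.9 and 13.4 FPKM (-0.38, SE 0.07, limma adjusted p = 0.00757). ERCC3, a helicase of the TFIIH complex that opens the helix, was at 28.6, 32.4 and 35.8 FPKM against 44.3, 42.1 and 39.5 FPKM (-0.37, SE 0.09, limma adjusted p = 0.0228). All 3 had separate groups, and ERCC3 had the widest spread within them. ERCC3 lost its call without OV-BRCA1 replicate 2, NC replicate 1 or NC replicate 2, at limma adjusted p-values of 0.0583, 0.0706 and 0.0629, and its fold change was 0.10 with the most abundant transcript.

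The other 5 nucleotide excision genes were not called. ERCC1, which with ERCC4 cuts the damaged strand on one side, was the most abundant at 45.7, 46.2 and 47.9 FPKM against 46.6, 61.0 and 49.1 FPKM. ERCC4 was the least abundant, at 4.73, 4.59 and 5.41 FPKM against 3.82, 4.10 and 3.96 FPKM. Its groups were apart and its fold change of 0.25 (SE 0.08) had a limma adjusted p of 0.0607. ERCC5, the nuclease that cuts on the other side, spread from 3.61 to 7.72 FPKM against 5.63 to 12.3 FPKM and its fold change of -0.54 had an SE of 0.33. It was named after its values were seen, and it shares exon bases on the same strand with BIVM and with the BIVM-ERCC5 readthrough gene. XPA and ERCC2, the damage verifier and the second TFIIH helicase, had fold changes of 0.16 and 0.11.

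In base excision repair LIG1, which seals nicks at the end of long-patch repair and in replication, fell. It was at 22.9, 25.7 and 26.1 FPKM in OV-BRCA1 and at 39.5, 34.4 and 41.7 FPKM in NC, 64.6% of the NC mean (-0.61, SE 0.09, limma adjusted p = 0.00345). With coding transcripts alone the fold change was -0.20 and was not called (limma adjusted p = 0.413). LIG3, the ligase that works with XRCC1, was at 5.65, 6.19 and 5.31 FPKM against 4.49, 3.60 and 4.99 FPKM (0.33, SE 0.12, limma adjusted p = 0.0729). UNG, which removes uracil from DNA, had the largest positive fold change of all 55 genes, and was singled out for it after its values were seen. It was at 40.2, 38.3 and 26.9 FPKM against 20.8, 17.4 and 29.9 FPKM, and OV-BRCA1 replicate 3 lay below NC replicate 3. Its fold change of 0.62 had an SE of 0.23 and a limma adjusted p of 0.0796, and without NC replicate 3 it was 0.83 with a limma adjusted p of 0.0311. XRCC1, the scaffold of the pathway, was at 13.2 to 27.2 FPKM against 20.8 to 34.0 FPKM, and OGG1, APEX1 and POLB, which remove oxidised guanine, cut the backbone and fill the gap, had fold changes of 0.02, 0.06 and 0.27 without a call.

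Of the 8 checkpoint genes 1 fell and none rose, with a median of -0.03. CHEK2, the kinase that signals from double-strand breaks, was at 11.5, 11.6 and 12.8 FPKM against 14.3, 15.8 and 13.8 FPKM (-0.26, SE 0.08, limma adjusted p = 0.0404). It passed the threshold only without OV-BRCA1 replicate 3, and its limma adjusted p was 0.0556 to 0.107 when any other sample was left out. Its fold change was 0.04 with the most abundant transcript. CHEK2 also has near-identical pseudogene copies. CHEK1, the kinase that signals from stalled replication, was the most abundant, at 16.7, 19.1 and 21.5 FPKM against 15.6, 15.7 and 16.6 FPKM. Its groups were narrowly apart (0.24, SE 0.10, limma adjusted p = 0.0967, and 0.0314 without OV-BRCA1 replicate 1). Of the upstream kinases, ATR was at 7.74 to 9.33 FPKM against 8.57 to 9.03 FPKM, and ATM at 12.2, 10.2 and 10.1 FPKM against 13.8, 9.45 and 11.6 FPKM. Both overlapped as sums of FPKM. Weighted by transcript length ATM was apart, at 35.1, 38.6 and 37.7 against 45.03, 50.1 and 91.0, with NC replicate 3 far above the others (-0.66, SE 0.25, limma adjusted p = 0.0836). RNF168, a ubiquitin ligase that marks chromatin at breaks, was the least abundant at 4.27 to 5.06 FPKM against 4.22 to 4.65 FPKM, and RNF8, which acts before it, spread from 4.73 to 7.56 FPKM against 2.42 to 5.14 FPKM. MDC1 and TP53BP1, which gather at the marked chromatin, had fold changes of -0.03 and -0.15.

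The other genes of the same pathways also moved in both directions. Of 28 other Fanconi and recombination genes 3 rose and 8 fell (median -0.05), among them RPA2 (0.19) and USP1 (0.25), which rose, and RPA3 (-0.45) and FAAP100 (-0.51), which fell. RPA2 and RPA3 are subunits of one complex, the one that coats single-stranded DNA. Of 11 other end joining genes 1 rose, SHLD2 (0.38), and 2 fell, among them PAXX (-0.34). Of 12 other mismatch repair genes 1 rose, the clamp loader subunit RFC3 (0.26), and 2 fell, POLD4 (-0.29) and the sliding clamp PCNA (-0.52). PCNA was at 106, 103 and 131 FPKM against 163, 158 and 166 FPKM.

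Of 27 other excision repair genes 3 rose and 4 fell (median 0.02). ERCC8 (0.40) and RAD23B (0.19) rose, while NEIL1 (-0.71), a glycosylase, and CETN2 (-0.48), fell. RAD23B and CETN2 are both partners of XPC. Of 14 other checkpoint genes 2 rose and 5 fell (median -0.13). The rises were TIPIN (0.88), of the fork protection complex, and CDC25A (0.76), a phosphatase that drives entry into S phase. CDC25B (-0.66) and CDC25C (-0.92), phosphatases of entry into mitosis, fell. CDC25C stood at 8.06, 7.78 and 8.60 FPKM against 13.6, 19.5 and 16.3 FPKM, so the 3 CDC25 genes did not move one way.

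Several other things differed between the groups beside the repair genes. Of 22 genes of G2 and mitosis 15 fell and none rose (median -0.55), and their summed level was 953 to 1003 FPKM in OV-BRCA1 and 1438 to 1526 FPKM in NC. Of 25 S phase genes 5 rose, such as CDC6 (0.55) and RRM2 (0.26), and 7 fell, such as E2F2 (-0.69), with a summed level of 1171 to 1199 FPKM against 1151 to 1196 FPKM. Of 17 tested targets of p53, 3 rose, such as GADD45A (1.18) and SESN2 (0.42), and 5 fell, such as TP53I3 (-0.88) and ZMAT3 (-0.69), and their summed level was 294 to 302 FPKM against 269 to 270 FPKM, higher in OV-BRCA1. All 20 interferon-stimulated genes rose (median 2.56), IFIT1 from a mean of 68.1 to one of 977 FPKM. The mitochondrial share of all FPKM was 14.8% to 17.2% in OV-BRCA1 and 21.0% to 23.2% in NC, and the summed FPKM of the 55 repair genes was 1040 to 1067 against 1131 to 1153. The part of each of these in the repair gene values was not tested. Of the epithelial markers KRT8 (354 to 385 FPKM against 316 to 339 FPKM) and KRT18 (249 to 256 against 188 to 199 FPKM) were abundant, while KRT5, TP63, KRT19 and CDH1 were below 1 FPKM in every sample. Of the leukocyte, endothelial and fibroblast markers PTPRC and VWF were listed at 0 and CD14 was the highest, at 6.65 to 9.04 FPKM against 17.8 to 20.4 FPKM. COL1A1 and ACTA2 fell (-0.79 and -0.77) and EPCAM rose (1.12).

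Part of these sums came from transcripts that are not coding. Over both groups a median of 69.9% of a repair gene's FPKM was assigned to transcripts annotated as protein coding, against 85.4% over 12333 protein-coding genes tested. The share was under 50% in 11 of the 55 genes and in 2156 of the 12333, down among repair genes to 21.0% in FANCI, whose retained-intron transcript FANCI-212 (4663 bases) alone held 27.9 to 29.1 FPKM in OV-BRCA1 and 27.0 to 39.6 FPKM in NC. DDB2 was assigned 45.9% to retained-intron transcripts in OV-BRCA1 and 51.2% in NC. Its retained-intron transcripts were at 7.55, 7.55 and 6.94 FPKM against 15.0, 15.4 and 14.7 FPKM, and its coding transcripts were at 4.68, 3.67 and 4.07 FPKM against 5.23, 5.96 and 6.51 FPKM. With coding transcripts alone DDB2 still fell (-0.43, limma adjusted p = 0.0370), as did FANCA (-0.40), FANCL (-0.29), XPC (-0.36) and POLQ (-0.71). EXO1 and LIG4 also kept their calls there, while LIG1, ERCC3, FANCG, FANCI, RAD51C, NBN and CHEK2 lost theirs. The coding transcripts of LIG1, which did not pass alone, were at 6.71, 9.43 and 5.93 FPKM against 8.87, 7.70 and 8.81 FPKM, and the groups overlapped.

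**Figure D4:**
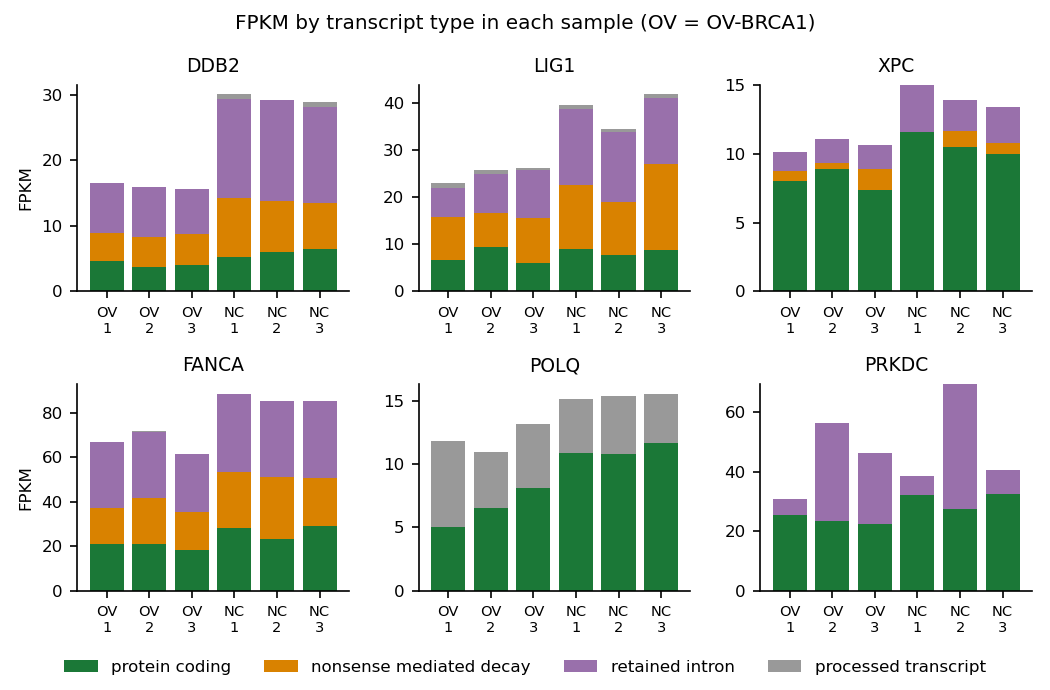
FPKM of 6 repair genes in each sample (bars, y axis), stacked by the type of transcript in the annotation. The retained-intron part of DDB2 is 6.94 to 7.55 FPKM in OV-BRCA1 and 14.7 to 15.4 FPKM in NC, and the retained-intron part of PRKDC is large in replicate 2 of both groups and in OV-BRCA1 replicate 3.

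In PRKDC the spread lay in short transcripts. The retained-intron transcript PRKDC-207 (834 bases) was at 2.02, 23.8 and 5.12 FPKM in OV-BRCA1 and at 2.06, 32.9 and 2.99 FPKM in NC. The full coding transcript PRKDC-201 (13509 bases) was at 24.8, 22.4 and 21.8 FPKM against 31.3, 26.8 and 32.1 FPKM, with every OV-BRCA1 sample below every NC sample. In POLQ the coding transcripts POLQ-201 (8775 bases) and POLQ-204 (9055 bases) changed places between samples. POLQ-201 was at 0.0256, 6.44 and 8.05 FPKM in OV-BRCA1 while POLQ-204 was at 5.00, 0.0395 and 0.0258 FPKM. NBN-201 and NBN-203 did the same, at 6.96, 4.96 and 0.0834 FPKM and at 0.00961, 0 and 6.57 FPKM, so values of single transcripts of these genes are uncertain, those of the most abundant transcript given above included.

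A sum of FPKM counts 1 fragment of a short transcript for more than 1 of a long one. When each transcript's FPKM was multiplied by its length before summing, so that every fragment counts alike, the median coefficient of variation between samples of a group was 5.83% over the repair genes in place of 8.42%, and 23 of the 55 were called, 8 higher and 15 lower, against 20.2% higher and 22.4% lower of all genes tested in that way. Of the 14 genes above, 13 were called in the same direction and FANCG was not (0.08, limma adjusted p = 0.664). The 10 additional genes were RAD51B (0.42), XRCC4 (0.55), ERCC4 (0.23) and RNF8 (0.35), which rose, and MRE11 (-0.33), RAD52 (-0.29), XRCC6 (-0.13), PRKDC (-0.35), XRCC1 (-0.45) and ERCC1 (-0.21), which fell. PRKDC, which overlapped as a sum of FPKM, had a limma adjusted p of 0.00194 in this length-weighted sum. The widest shift between the sums was that of ATM, from -0.08 to -0.66, without a call in either, and POLQ moved from -0.34 to -0.72.

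**Figure D5:**
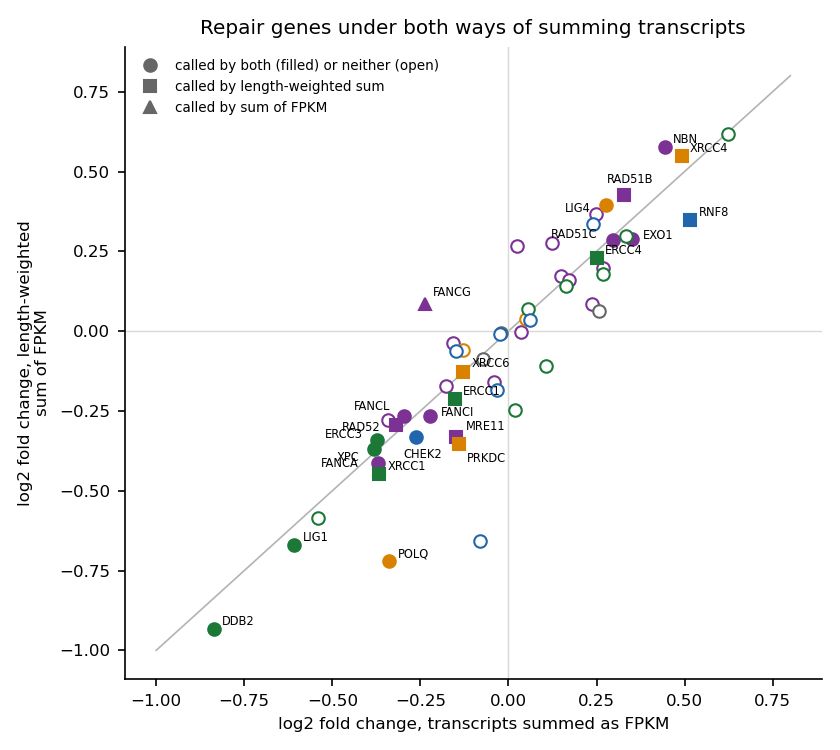
Log2 fold change (OV-BRCA1 over NC) of each repair gene with transcripts summed as FPKM (x axis) and with each transcript weighted by its length (y axis), coloured by pathway, with the line of equality. Filled circles are called by both sums, open circles by neither, squares by the length-weighted sum only and the triangle, FANCG, by FPKM only. DDB2 and LIG1 are lowest on the x axis, and POLQ and ATM (open, at -0.08 and -0.66) lie far below the line.

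Many repair genes share their start region or their exons with a neighbour. A protein-coding gene began head to head with 20 of the 55, within 1000 bases or with an overlap of up to 500, and 16 such pairs could be tested. The neighbour was called in 7 of the 16 pairs, beside 35.3% of all genes tested, and in 2 of these pairs the repair gene was called too. Whether neighbours were called more often than other genes was not tested. LIG4 and its neighbour ABHD13 both rose (0.28 and 0.37). CHEK2 fell while HSCB, its neighbour, rose from 8.65, 8.95 and 9.96 FPKM in NC to 13.1, 12.6 and 12.7 FPKM in OV-BRCA1 (0.44, limma adjusted p = 0.00499). Other called neighbours included DESI1 beside XRCC6 (0.82), AIMP2 beside PMS2 (0.24), ZFYVE21 beside XRCC3 (-0.39) and OSGEP beside APEX1 (-0.38). XPC and LSM3 differed, since LSM3 was at 20.5 to 20.8 FPKM against 19.2 to 20.4 FPKM. Whether strand was used in counting is not given in the sources used here, and 16 of the 55 genes share exon bases with a gene on the opposite strand. Among called genes these are FANCA with ZNF276, FANCI with POLG, FANCL with VRK2, XPC with LSM3 and CHEK2 with HSCB, and without strand their reads cannot be told apart. POLG fell as FANCI did (-0.20, limma adjusted p = 0.0322), while ZNF276 (-0.22) and VRK2 (0.23) were not called. A gene on the same strand shares exon bases with 4 more, among them CHEK1 with STT3A, which rose by 0.51.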

How the data were processed

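The authors deposited FPKM values per transcript, made from libraries of bead-captured mRNA. Their methods describe removal of reads with adapters, unknown bases or low quality and a negative binomial test of counts, which FPKM do not allow. The submitters' processing notes name hg38, HISAT2 and FastQC. The quantification tool, the annotation and the use of strand are not given in the sources used here. Each of the 6 sample files held the same values as the series table of 199167 transcripts of 58174 genes. Groups were taken from the transfection label.

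Transcript FPKM were summed per gene and named by GENCODE release 29. Genes that reached 0.5 FPKM in 3 samples or more were tested on log2(FPKM + 1) with limma 3.58.1 in R 4.3.3 (moderated test with trend, without robust estimation), with Benjamini-Hochberg adjustment over all genes tested. No count model was used, since the values are FPKM. Only 25.3% to 30.5% of low values came within 0.1 of a whole number of fragments, and no counts were read back from them. The depth estimated from low values among 14216 single-transcript genes was 14.5 to 17.0 M fragments in OV-BRCA1 and 16.2 to 20.4 M in NC. This estimate rests on the same low values, is uncertain and covers counting error only. The fit was checked on simulated data.

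The repair genes and the lists of other genes were chosen with earlier results of these data known. Genes named are those called (up to 5 per direction and pathway), the most and least abundant of each pathway, and up to 2 per direction of each other list with a mean of 1 FPKM or more. PRKDC, UNG, ERCC5 and ATM, members given as examples of a range or role, and neighbouring genes were named outside this rule. Promoter windows were RefSeq's, 1 per gene, nearest to the GENCODE start. Alternatives were another pseudocount, filter, scaling or transcript choice, a replicate block and leaving out each sample. Some genes that the rule covers are not reported here.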

Additional observations from a re-analysis of the deposited data

How the results depend on the processing

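Of 15 alternatives, 13 were planned and 2 (coding transcripts only, and length-weighted sums) were chosen after seeing the data. FANCA and DDB2 were called under all 15, EXO1, XPC, LIG1 and FANCL under 14, POLQ under 13, ERCC3, FANCG and RAD51C under 8, NBN under 7, FANCI and CHEK2 under 5 and LIG4 under 4. With a pseudocount of 0.1, 0 end joining genes were higher. Without a filter on low values, 1 repair gene was higher (1 Fanconi or recombination, 0 end joining) and 0 checkpoint genes were lower, while 14.5% of all genes were called against 35.3%. With median-of-ratios scaling the median log2 fold change of the repair genes was 0.011 (all genes -0.0073), 1 excision gene was higher and 0 checkpoint genes were lower. With scaling to nuclear protein-coding genes the median was -0.057 (all genes -0.066), and 0 end joining genes were higher and 3 lower. With the most abundant transcript alone, 0 repair genes were higher and 6 lower (median 0.0013), of them 0 and 1 Fanconi or recombination genes (median 0.11). In that setting 0 end joining genes were higher and 0 checkpoint genes lower, and the medians of excision repair and checkpoint genes were -0.20 and 0.034. Genes whose sign changed there included FANCG (0.30), MSH6 (-0.36), ERCC3 (0.10), CHEK2 (0.041) and ATM (0.027), and the list is not complete. With coding transcripts only, 6 repair genes were lower, and 1 Fanconi or recombination gene was higher and 2 lower (median 0.14). There 2 end joining genes were higher and 2 lower (median 0.28), 2 excision genes were lower, 1 checkpoint gene was higher and 0 lower, 1 repair gene (RNF8) passed the fold criterion, and FANCG was at 0.26. With length-weighted sums 8 repair genes were higher, with 2 end joining genes higher and 3 lower, 1 excision and 1 checkpoint gene higher, medians of 0.084 (Fanconi and recombination) and -0.21 (excision), and FANCG at 0.084. Over all genes 1685 were higher and 1606 lower with the most abundant transcript, and 2105 and 1589 with coding transcripts, against 2674 and 3090. The cause of these differences was not tested.

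Leaving out 1 sample, which left 27.1% to 29.2% of all genes called, gave 1 to 3 repair genes higher and 6 to 8 lower (median -0.044 to 0.0014), 1 to 3 Fanconi or recombination genes higher and 2 to 4 lower (median -0.031 to 0.054), 0 to 1 end joining genes higher and 0 to 1 lower (median -0.13 to 0.084), 0 to 1 excision genes higher and 3 to 4 lower (median -0.072 to 0.051), and 0 to 1 checkpoint genes higher and 0 to 1 lower (median -0.049 to 0.0071). PRKDC ranged from -0.33 to 0.12 and ATM from -0.21 to 0.041. With the replicate number as a block, 2 repair genes were higher and 6 lower, with 2 Fanconi or recombination genes lower, 0 end joining genes higher and 0 checkpoint genes lower, and 2159 higher and 2436 lower of all genes. The deviations of samples with the same number correlated at -0.024, 0.025 and 0.014, and not every sample correlated best with its own number. The numbers were not treated as a pairing, but correlations across genes cannot exclude one.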
